A study of Mus musculus with 6 samples.

Results

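Methylated DNA of mouse hematopoietic stem cells (HSC) was compared, peak by peak, with that of common myeloid progenitors (CMP). All peaks on chromosomes 1 to 19 of the HSC and CMP lists were taken, which is 83430 HSC peaks and 49054 CMP peaks, or 132484 of the 164274 peaks in the 3 lists of the series. An HSC peak was called kept when it shared at least 1 bp with a CMP peak and lost when it did not. A CMP peak that shared no base with an HSC peak was called gained. Both cell types came from the bone marrow of adult female C57BL/6 mice. HSC were sorted as lineage-negative, Sca-1-positive and c-kit-positive cells, and CMP as lineage-negative, Sca-1-negative and c-kit-positive cells. As background, the first gate also admits multipotent progenitors, and the second also admits granulocyte-macrophage and megakaryocyte-erythroid progenitors. The lists hold no expression values, so neither cell type could be checked against its markers. Each cell type has 1 MBD2-enriched library, and another list, from erythroblasts (ERY), served as a readout that the definition of kept and lost did not use.

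Methylation in mammals sits mainly on cytosines of CpG pairs and is copied to the new strand at each division by a maintenance enzyme. It falls where copying fails or where oxidising enzymes act, and rises where the de novo enzymes add it. In blood formation, changes in methylation accompany the choice between lymphoid and myeloid fates, and enhancers and promoters of lineage genes often lose methylation in the lineage that uses them. MBD2 holds DNA with methylated CpG pairs, so a peak marks a stretch with many of them. A pulldown is also more sensitive where CpG pairs are dense. A lost peak is one that the CMP list does not call, at whatever depth its library had, since the files give no read numbers.

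With 1 library per cell type there is no replicate check, and no test between the cell types was run. Intervals in parentheses are 95% exact binomial (Clopper-Pearson) intervals, computed as if peaks were independent, and they hold counting error alone.

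On the autosomes 35923 HSC peaks were lost in CMP, or 43.1% (42.7 to 43.4%), and 47507 were kept. Gained CMP peaks numbered 1719, or 3.50% (3.34 to 3.67%) of the CMP list, so that 20.9 peaks were lost for each one gained. This ratio and the share gained depended on the overlap rule and on width. With 50% of both peaks required to be shared, 39077 HSC peaks were lost and 4701 CMP peaks gained (9.58%), or 8.31 to 1. With 50% of each peak covered, 4.95% were gained and the ratio was 15.4 to 1. In the wider 50% of each list, set against the full other list, 1.15% were gained and the ratio was 47.3 to 1. In bases, lost peaks covered 25.4 Mb and gained peaks 1.11 Mb. The kept peaks covered 42.1 Mb in HSC and 41.0 Mb in CMP, a CMP to HSC ratio of 0.973. The change in covered DNA thus lay in whole peaks that were absent, and little in the total length of those that stayed. Of all bases under HSC peaks, 51.9% were also under a CMP peak.

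Kept peaks matched mostly one to one. Among HSC peaks, 46796 overlapped a single CMP peak, 692 overlapped 2 and 17 overlapped 3. Among CMP peaks, 46445 overlapped a single HSC peak and 876 overlapped 2. In the 45205 pairs in which each peak had only the other as partner, the centres lay a median of 78 bp apart, and CMP covered a median of 89.4% of the HSC peak. Less than 50% was covered in 2.56% of these pairs. The median ratio of CMP to HSC width was 0.994 (quartiles 0.825 and 1.21). It ran from 1.46 in the narrowest quintile of HSC peaks (555 bp or less) to 0.840 in the widest quintile (1000 bp or more). A list sorted by its own width shows such a gradient whenever width is measured with error, and the part of error in it was not tested. Across pairs the log2 widths in the 2 lists had a Pearson correlation of 0.574, a description over peaks of the same libraries.

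Most lost peaks were not a matter of a few bases at an edge. The nearest CMP peak lay a median of 9685 bp from a lost peak (quartiles 3104.5 and 25136.5 bp), and 1890 lost peaks (5.26%) had one within 500 bp. Gained peaks lay a median of 6378 bp from the nearest HSC peak, and 135 of them (7.85%) had one within 500 bp. A position more than 100 kb from any peak of the other list was rare in both classes, with 1416 lost peaks (3.94%) and 58 gained peaks (3.37%).

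The presence of an ERY peak differed between the 3 classes. An ERY peak was present at 52.3% of kept HSC peaks (51.9 to 52.8%) and at 1119 lost ones, which is 3.1% (2.94 to 3.30%). Of gained CMP peaks, 279 had an ERY peak, or 16.2% (14.5 to 18.1%). Over whole lists an ERY peak was present at 51.2% of all CMP peaks and 31.1% of all HSC peaks. Among kept CMP peaks the share was 52.5%. The share for gained CMP peaks thus lay between those of kept and lost HSC peaks, and below that of kept CMP peaks. It lay between those of kept and lost HSC peaks in each width quintile of the HSC list. Among the narrowest quintile the shares were 37.8% of kept HSC peaks, 16.3% of gained CMP peaks and 2.54% of lost HSC peaks. Among the widest quintile they were 66.6%, 23.1% and 4.38%, where the gained class held 26 peaks and its interval ran from 8.97 to 43.6%. Kept CMP peaks had an ERY peak in 31.8% of cases in the narrowest quintile and 78.5% in the widest. Erythroblasts form downstream of cells in the CMP gate, so ERY is a later stage and not a replicate of CMP.

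Both the width of a peak and its neighbours went with the share lost. The share lost was 58.9% (58.1 to 59.6%) in the narrowest quintile of HSC peaks, 53.3% in the second, 44.6% in the third, 37.1% in the fourth and 21.3% (20.7 to 21.9%) in the widest. Gained peaks were mostly narrow. They made up 10.7% of CMP peaks of 555 bp or less and 0.273% (0.178 to 0.400%) of those of 1000 bp or more. HSC peaks with no other HSC peak within 10 kb were lost in 44.9% of 27874 cases (44.3 to 45.4%), and those with 6 or more neighbours in 33.0% of 2366 cases (31.1 to 34.9%). Crowded peaks were also wider, with medians of 856 bp against 708 bp. Within the widest quintile the share lost was 23.3% (21.9 to 24.6%) for isolated peaks and 17.3% (14.7 to 20.1%) for those with 6 or more neighbours. This quintile has no upper bound, and its crowded peaks were again wider, with medians of 1260 bp against 1142 bp. Its 2 shares are therefore not at like width. Within the narrowest quintile the share lost was 57.0% (55.8 to 58.2%) with no neighbour, 61.1% (59.2 to 63.0%) with 2 and 53.0% (47.0 to 59.0%) with 6 or more. In the quintiles between, the same ends of the scale gave 52.3% and 47.3% (second), 43.75% and 37.7% (the third), and 37.7% and 32.0% (the fourth). The share was thus lower with 6 or more neighbours than with none in all 5 quintiles, by a few points and without a steady fall, and the intervals of the 2 ends overlapped in the 3 narrower quintiles.

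**Figure D1:**
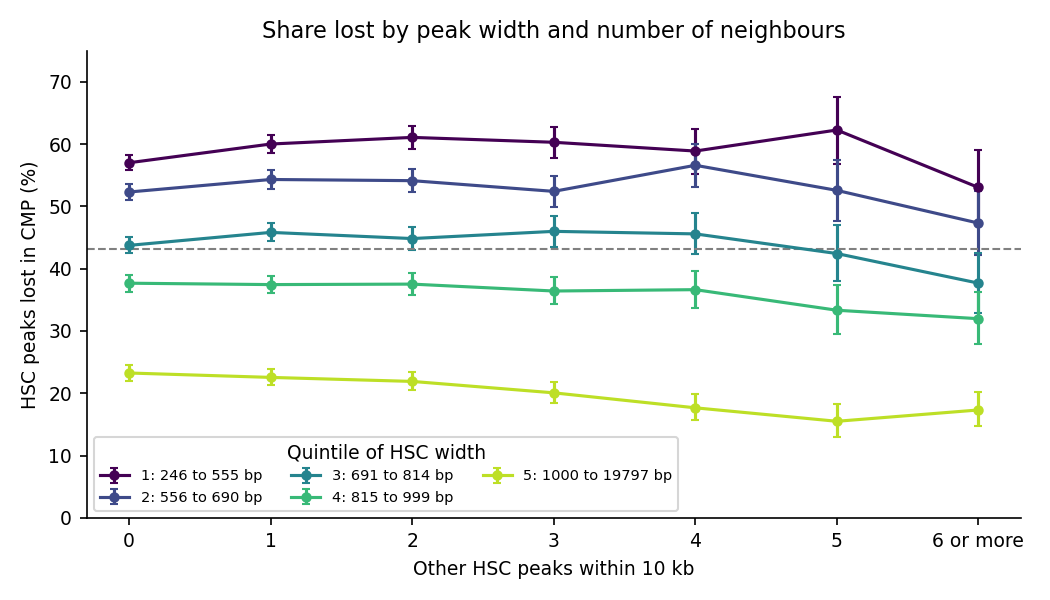
Share of HSC peaks lost in CMP (y axis, percent) by the number of other HSC peaks within 10 kb (x axis), 1 line for each quintile of HSC peak width, with 95% exact binomial intervals and the autosomal share of 43.1% as a dashed line. The 5 lines keep their order at each number of neighbours drawn, from 57.0% down to 23.3% for isolated peaks and from 53.0% down to 17.3% for those with 6 or more neighbours.

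Loss was spread over all autosomes. The share lost ranged from 40.6% on chromosome 7 (39.2 to 42.0%) to 45.1% on chromosome 6 (43.6 to 46.6%), with a standard deviation of 1.10 percentage points over the 19 autosomes. Chromosomes 7 and 8 lay at the low end, with 40.6% and 41.8%, and chromosomes 6 and 13 at the high end, with 45.1% and 44.6%. Chromosome 6 has a median HSC peak width of 735.5 bp and chromosome 7 of 759 bp, and the part of width in the difference was not tested. The share of CMP peaks that were gained ran from 2.91% on chromosome 8 (91 of 3122 peaks) to 4.38% on chromosome 1 (134 of 3058 peaks, 3.68 to 5.17%). Lost peaks outnumbered gained ones on each autosome, by 17.4 to 1 on chromosome 7 up to 25.2 to 1 on chromosome 17.

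**Figure D2:**
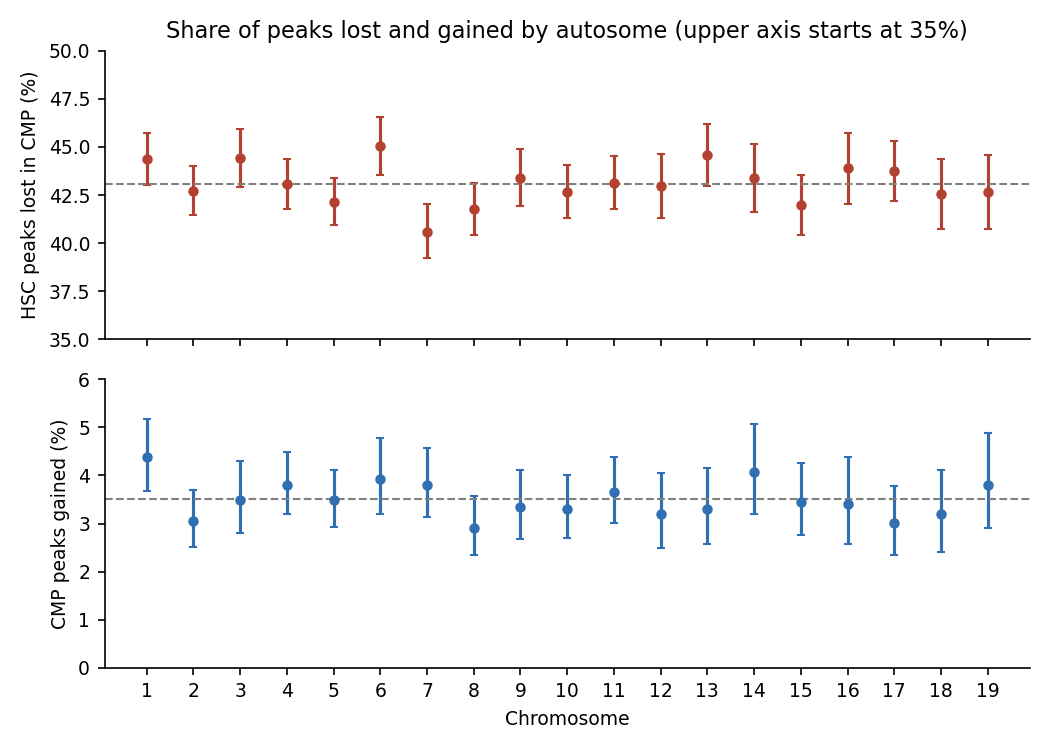
Share of HSC peaks lost in CMP (upper panel, percent, axis from 35%) and share of CMP peaks gained (lower panel, percent) on each autosome, with 95% exact binomial intervals and the values over all autosomes (43.1% and 3.50%) as dashed lines. Chromosome 7 has the lowest share lost (40.6%), and chromosome 1 has the highest share gained (4.38%).

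The share lost was lower near both ends of the chromosomes. Mouse autosomes carry the centromere at the proximal end and a telomere close to it, so the 2 ends differ in kind. Within 1 Mb of the last HSC peak of each chromosome, 36.7% of 436 HSC peaks were lost (32.2 to 41.4%). The share was 40.6% from 1 to 2 Mb, 41.7% from 2 to 5 Mb and 43.0% from 5 to 10 Mb, and it stayed between 43.0% and 43.5% farther in. In the first 5 Mb of the chromosomes, 37.2% of 1163 peaks were lost (34.4 to 40.1%), against 42.6% from 5 to 10 Mb. This side was measured from the chromosome start and not from the first peak, so the 2 ends are not on like scales. No 1 Mb window with 20 or more HSC peaks started before 3 Mb. The gradient was larger among the wider 50% of HSC peaks. There 21.1% of 228 peaks were lost in the distal 1 Mb (15.9 to 26.9%) and 24.6% of 568 in the proximal 5 Mb (21.2 to 28.4%), against 32.0% over all wider peaks. The median width of these wider peaks was 935 bp in the distal 1 Mb and 930 bp more than 50 Mb away, so their loss differed at like median width. Gained peaks, with small counts, were 13 of 290 CMP peaks in the distal 1 Mb (4.48%, 2.41 to 7.54%) and 8 of 434 in the next 1 Mb (1.84%, 0.799 to 3.60%).

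**Figure D3:**
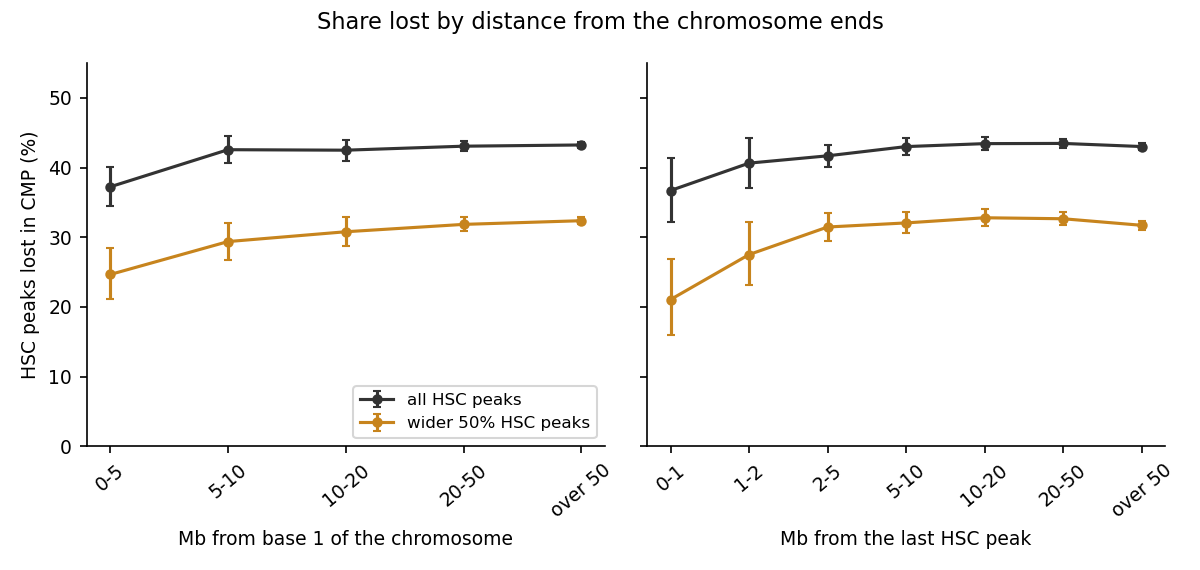
Share of HSC peaks lost in CMP (y axis, percent) by distance in Mb from the start of the chromosome (left) and from its last HSC peak (right), for all HSC peaks and for the wider 50%, with 95% exact binomial intervals. Both lines are lowest in the outermost bin on each side, with 37.2% and 24.6% at the proximal end and 36.7% and 21.1% at the distal end.

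At a finer scale, 1436 windows of 1 Mb held at least 20 HSC peaks. Their share lost had a median of 44.1% (quartiles 38.5 and 50%) and ran from 16.4% to 80%. In 70 windows it was under 30% and in 61 over 60%. Windows with 80 or more HSC peaks lost 40.3% of them when pooled (39.6 to 40.9%), and those with 20 to 39 lost 45.4% (44.6 to 46.1%). The windows named next are the extremes of this range, so their values are descriptions and part of their distance from the median comes from having been selected.

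**Figure D4:**
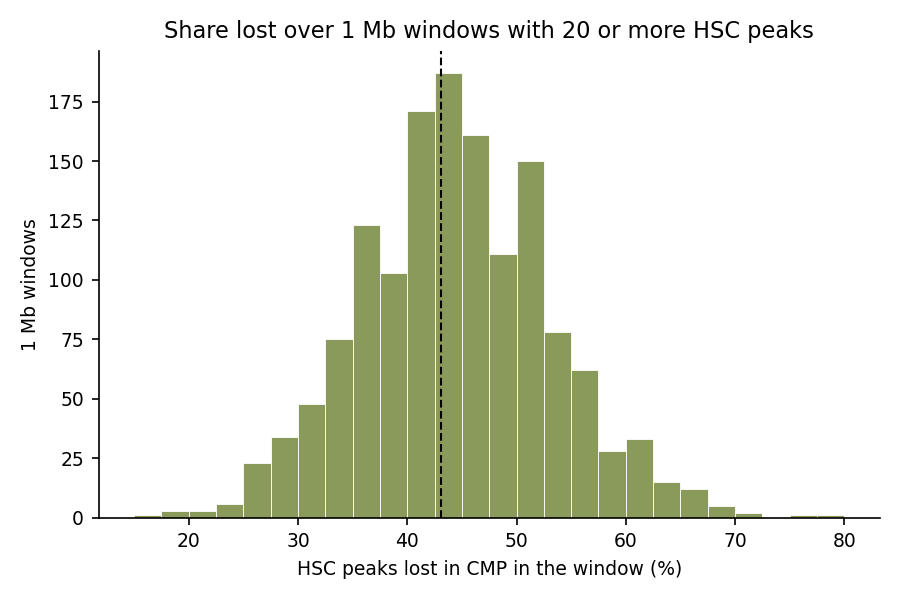
Number of 1 Mb windows with 20 or more HSC peaks (y axis) by the share of their HSC peaks lost in CMP (x axis, percent), with the autosomal share of 43.1% as a dashed line. The 1436 windows form a single hump around a median of 44.1%, with 70 windows under 30% and 61 over 60%.

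The best kept window lay on chromosome 8 from 73 to 74 Mb, where 12 of 73 HSC peaks were lost (16.4%, 8.79 to 27.0%). The second, on chromosome 18 from 37 to 38 Mb, lost 16 of 84 (19.05%, 11.3 to 29.1%) and had the widest peaks of the 5, with a median of 1132 bp. Smaller counts stood behind the other 3. On chromosome 3, 4 of 21 peaks were lost from 65 to 66 Mb and 6 of 29 from 41 to 42 Mb, and on chromosome 6, 4 of 21 from 3 to 4 Mb. At the other extreme, chromosome 17 lost 39 of 52 peaks from 75 to 76 Mb (75%, 61.1 to 86.0%) and 24 of 34 from 44 to 45 Mb (70.6%, 52.5 to 84.9%). Chromosome 2 lost 16 of 20 from 115 to 116 Mb and 16 of 23 from 146 to 147 Mb, and chromosome 5 lost 21 of 30 from 132 to 133 Mb. Peaks in the windows with most loss had medians of 574 to 734 bp, below the 748 bp of all HSC peaks, and those in the best kept windows 780 to 1132 bp, above it.

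Lost and kept peaks also formed runs along the list. With 43.1% of HSC peaks lost, runs of both kinds arise even where loss is scattered. Whether their number or length goes beyond that was not tested. The longest stretch of consecutive lost HSC peaks had 13 peaks, on chromosome 1 at 156752962 to 157073755 (mm9, a span of 320.8 kb), without any CMP peak inside it. Runs of 12 lay on chromosome 1 at 51845878 to 52148001, on chromosome 11 at 35677788 to 35773575, on chromosome 15 at 95602249 to 95696702 and on chromosome 16 at 94518297 to 94727227. None of these 5 stretches held a gained peak, and their HSC peaks met an ERY peak in 1 case on chromosome 1, in the longest, and in 1 case on chromosome 11. Such cases are few in the whole class too, at 3.1% of all lost peaks. The longest run of kept peaks had 28 members, spread thinly over 3.05 Mb of chromosome 14 at 38494280 to 41540658, where 2 CMP peaks were gained and 14 HSC peaks had an ERY peak. Next were runs of 22 on chromosome 7 at 110419998 to 111374491 and on chromosome 15 at 98480977 to 98685380. The latter packed its 22 peaks into 204.4 kb, all kept, and 11 of them had an ERY peak. Of all kept HSC peaks 52.3% had one, so the ERY counts of these kept runs are near the share of their class. A run of 20 followed on chromosome 7 at 11724080 to 12973394, and 3 runs tied at 18, on chromosomes 2, 7 and 19. Of lost runs 11224 were single peaks out of 20031. Runs of 5 or more numbered 771 for lost peaks and 2276 for kept ones, where kept peaks are the larger class.

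Single peaks of unusual width show the same 3 outcomes. After the 5 widest lost peaks came a peak of 2403 bp on chromosome 17 that spans 68260845 to 68263247. It was followed by one of 2369 bp on chromosome 2 (155815620 to 155817988) and one of 2319 bp, again on chromosome 17 (63328006 to 63330324). Chromosome 14 held one of 2312 bp (31372462 to 31374773), and chromosome 3 one of 2304 bp (89027506 to 89029809). The nearest CMP peak was 967 bp away from the first of these and 16137 bp away from the one of 2319 bp. None of the 10 widest lost peaks had an ERY peak, near the 3.1% of all lost peaks and the 4.38% of those in the widest quintile that had one. Of the 10 widest gained peaks, 3 had an ERY peak, against 16.2% of all gained peaks and 23.1% of the 26 in the widest quintile. These 3 lay on chromosome 15 at 74915809 to 74917790, on chromosome 7 at 6373285 to 6374555 and on chromosome 3 at 116609981 to 116611210. The one on chromosome 3 was 417 bp from an HSC peak, and 2 more of these 10 also lay within 500 bp of one. The peak from 81594998 to 81596257 on chromosome 18 was 159 bp away, and that from 72856969 to 72858249 on chromosome 8 was 284 bp away. Among kept peaks of up to 3000 bp, the most shared bases were on chromosome 7 at 150644635 to 150647623, where all 2989 bp were also under a CMP peak. The next was on chromosome 13 at 120276421 to 120279340, with 2920 bp shared in full. All 10 kept peaks of this list had an ERY peak, against 66.6% of kept HSC peaks in the widest quintile. They are 2822 to 2995 bp wide and that quintile starts at 1000 bp, so the comparison is not at like width.

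To set these classes beside known biology, peaks were counted in windows of 10 to 230 kb at 28 loci. No annotation of build mm9 was at hand, so the windows were placed from general knowledge of the mm9 map, after results of these data were known. Of each, only the chromosome was checked, in RefSeq's table for another assembly, GRCm38.p6. Whether a peak there lies in a promoter, exon or intron was not examined. Over all 28 windows 45 of 122 HSC peaks were lost (36.9%), against the autosomal background of 43.1%, and 9 of 89 CMP peaks were gained, against 3.50%. The windows were chosen by gene, so these counts describe them and are no test.

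The window at Mpo lost its whole set of peaks. Mpo encodes myeloperoxidase, a granule enzyme of neutrophils whose gene becomes active in myeloid progenitors. HSC had 4 peaks there on chromosome 11, at 87609035 to 87609955, 87610631 to 87611404, 87613201 to 87613742 and 87614480 to 87617309, the last of 2830 bp being the second widest lost peak of all. CMP had none in the window, and its nearest peak lay 10009 bp from the widest of the 4. ERY had 1 peak, at 87610707 to 87611428, over the second of the HSC peaks. With the window widened by 10 kb on each side, 6 of 8 HSC peaks were lost and CMP had 2 peaks. In the window of Elane and Prtn3, which encode proteases of the same granules, the wide HSC peak on chromosome 10 at 79328124 to 79330323 was kept, with 84.9% of it covered in CMP. A narrow one at 79345464 to 79346088 was lost, and a CMP peak at 79349503 to 79350000 was gained 161 bp from an HSC peak. Widened by 10 kb on each side, this window had 7 HSC peaks with 1 lost and 7 CMP peaks with 1 gained. At Spi1, the gene of the ETS factor PU.1 that directs myeloid fate, 2 of 3 HSC peaks on chromosome 2 were kept and both had an ERY peak. The peak at 90946060 to 90946527, of 468 bp, was lost. The window at Cebpa, another myeloid regulator, had no peak in any list. Over the 4 myeloid windows 6 of 9 HSC peaks were lost (66.7%, 29.9 to 92.5%). Widened by 10 kb on each side, these windows lost 9 of 19 (47.4%), against 43.1% of all autosomal HSC peaks.

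Windows were also placed at the genes of the 2 surface proteins that define the gates. Kit encodes the c-kit receptor, present on both sorted populations. Of 12 HSC peaks in its window on chromosome 5, 9 were kept and 3 lost. Of its 11 CMP peaks 2 were gained, at 75991326 to 75992024 and 76034722 to 76035493, against 3.50% of all CMP peaks. The window of the Ly6 cluster on chromosome 15 includes Ly6a, which encodes Sca-1, the protein that HSC carry and CMP lack by the sort. HSC had a single peak in this 140 kb window, of 488 bp, and it was kept. Of its 3 CMP peaks 2 were gained, 1 at 74908481 to 74909176 and another at 74915809 to 74917790. The latter was the widest gained peak of all (1982 bp), and both lay more than 60 kb from any HSC peak. ERY had a peak over the second at 74915560 to 74917932 and none over the first. The position of these peaks relative to the genes of the cluster was not examined.

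Stem cell regulators gave mixed counts. Runx1, a regulator of definitive hematopoiesis, had 25 HSC peaks in its window on chromosome 16, of which 13 were kept and 12 lost, and 1 CMP peak was gained. At Gata2, a factor that maintains stem and progenitor cells, 2 of 3 peaks were lost and the widest (1521 bp) was kept. At Meis1, a partner of Hox proteins, the only HSC peak in 150 kb was kept. Over these 3 windows and those of Kit and the Ly6 cluster, 17 of 42 HSC peaks were lost. This share of 40.5% (25.6 to 56.7%) is near the 43.1% of all autosomal HSC peaks. Of 30 CMP peaks in the same windows 5 were gained, against 3.50% of all CMP peaks, a small count.

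The Hox clusters hold homeobox genes that pattern the embryo and, in part, sustain stem cells. The Hoxa window on chromosome 6 had 13 HSC peaks of which 12 were kept, and none of its 13 CMP peaks was gained. The widest, at 52152373 to 52157118 (4746 bp), was covered for 98.9% of its length in CMP. The single lost one, at 52113167 to 52113902, lay 7 bp from a CMP peak. Bases under peaks in this window were 19537 in HSC and 19081 in CMP, and ERY had no peak in it. The Hoxb window on chromosome 11 kept 9 of 13 HSC peaks, the widest of them at 96204947 to 96208016 (3070 bp), and gained 3 CMP peaks, so that both lists had 13. The Hoxd window kept 2 of 3. The Hoxc window had 1 HSC peak, at 102830644 to 102831608, and it was lost. Over the 4 Hox windows 7 of 30 HSC peaks were lost (23.3%, 9.93 to 42.3%). The share was 43.1% over all autosomal HSC peaks and 21.3% over those of 1000 bp or more. The part of width in the Hox counts was not tested. Of 28 CMP peaks in the 4 windows 3 were gained, against 3.50% of all, a small count.

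Imprinted loci carry methylation on one parental allele, set in the germ line and kept in body cells. In each of 13 windows at such loci, the widest HSC peak was kept in CMP, and at 12 of them it also had an ERY peak. The exception was H19, where the ERY peak, at 149762282 to 149763084, lay over another kept HSC peak, at 149762393 to 149763262. The 13 widest peaks were 1143 to 6543 bp wide. They were taken by width alone, and whether they are the stretches methylated on one parental allele was not examined. Of all 9361 autosomal HSC peaks of at least 1143 bp, 84.0% were kept and 60.3% had an ERY peak. The narrowest of the 13, at Snrpn, sets this bound, and most of the 13 are far wider. All HSC peaks of 1000 bp or more had a median of 1176 bp, so the comparison is not at like width. The widest of the 13 was at Gnas on chromosome 2, at 174120388 to 174126930, with 97.2% of its length covered in CMP. Full or nearly full cover was also seen at Nnat (157384923 to 157386694 on chromosome 2, 99.9%) and Grb10 (11925002 to 11927028 on chromosome 11, 93.4%). The peak at Peg3 (6681411 to 6684166 on chromosome 7) was covered for 87.6% and split over 2 CMP peaks. The lowest cover was 67.2%, at Dlk1-Meg3 (110764439 to 110767040 on chromosome 12). Other HSC peaks in these windows were lost in part, so that 14 of all 39 HSC peaks in the 13 windows were lost. This share of 35.9% (21.2 to 52.8%) has an interval that holds the autosomal 43.1%. The 60 kb window at Dlk1-Meg3 lost 7 of 12 peaks, that at Plagl1 lost 2 of 3 and that at H19 lost 2 of 5. None of the 26 CMP peaks in the 13 windows was gained, a count too small to set apart from the autosomal share of 3.50%.

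The globin windows held few peaks. The single HSC peak at the alpha globin genes on chromosome 11 (32186544 to 32186937, 394 bp) was lost, and neither CMP nor ERY had a peak in the 20 kb. Widened by 10 kb on each side, the alpha globin window had 2 HSC peaks with 1 lost, and 2 CMP peaks. The single peak at the beta globin genes on chromosome 7 (110970393 to 110971144) was kept in CMP, with 83.0% covered, and had a peak in ERY at 110970356 to 110971061. It lies inside the run of 22 kept peaks on this chromosome.

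**Figure D5:**
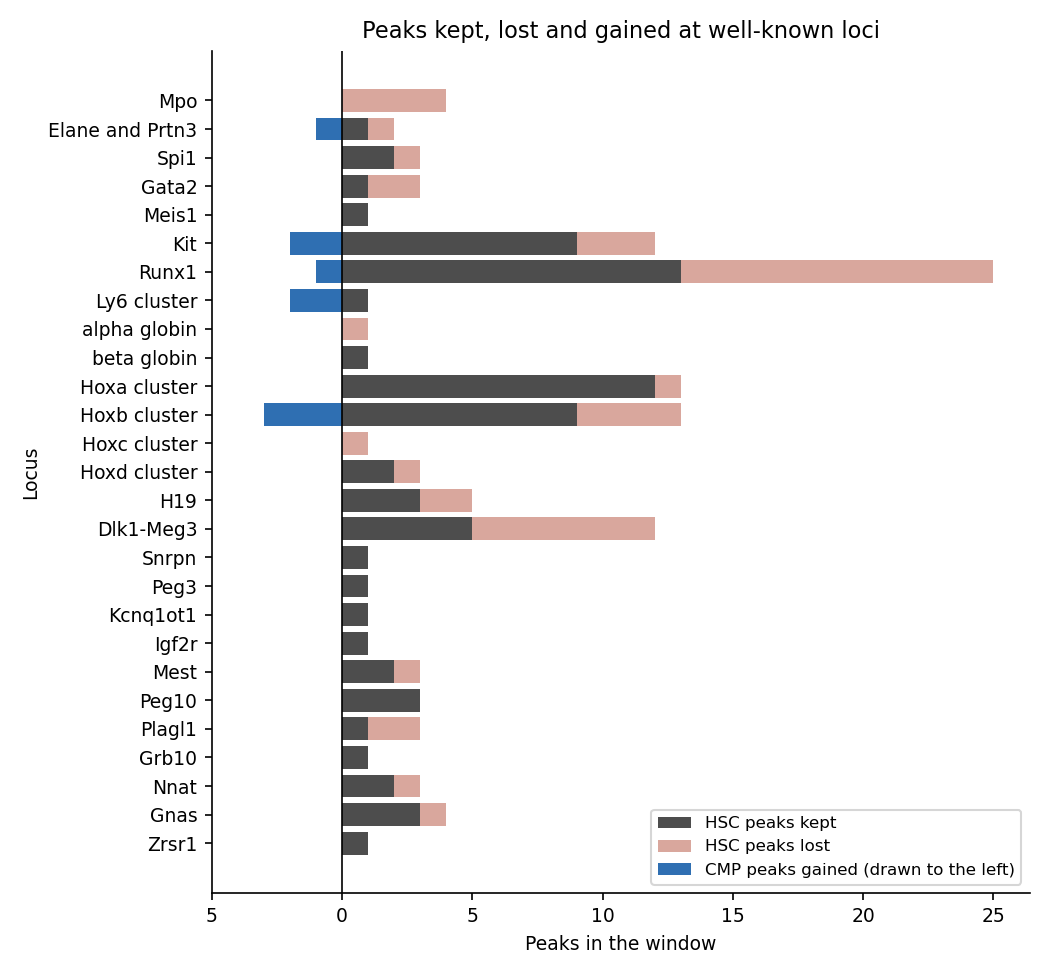
Number of peaks (x axis) in windows placed at 27 well-known loci (y axis), with HSC peaks kept in CMP in dark grey, HSC peaks lost in light red and CMP peaks gained in blue to the left of 0. The Mpo window has 4 lost peaks and none kept, the Hoxa window 12 kept and 1 lost, and each imprinted window from H19 down has at least 1 kept peak and none gained; Cebpa, with no peak, is not drawn.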

How the data were processed

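Genomic DNA of sorted cells was pulled down with MBD2 and sequenced as 36 bp single-end reads, per the labels' protocols. For each cell type the authors deposited the chromosome, start and end of its peaks, without scores, as a genome browser export per the file headers. Coordinates are on mm9, per the submitters' processing notes. The aligner, the peak caller with its threshold and control, and the depth were not given in the sources used here. Supernatant libraries (3) are not analysed here.

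Positions are printed 1-based. Overlap needed 1 shared bp. Scripts ran under Python 3.11.15 with scipy 1.17.1, pandas 2.3.3, numpy 2.4.6 and matplotlib 3.10.9. Overlap counts equalled those of bedtools 2.31.1 and were tested on simulated data. Named regions were drawn mainly from rankings, and not every member is printed. The rankings were the 10 widest lost and gained peaks and the 10 kept ones of up to 3000 bp with most shared bases. To these came the 5 windows of 1 Mb at each extreme, and the 5 longest runs of each kind. The comparison, the lists and the locus windows were chosen with earlier results of these data known. Naming loci goes beyond the planned rule, which named regions by coordinates. Gene features, base content, repeats, motifs and gene lists, and sequences of peaks, were not analysed, for want of an mm9 genome. Alternatives changed the overlap rule, the peaks used and the windows.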

Additional observations from a re-analysis of the deposited data

How the results depend on the processing

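No setting run changed a direction. Of 91 alternatives, 63 stayed inside the interval of the value (counts and ratios: within 1.5 times), and all 38 that left out an autosome did so, with shares lost of 42.9 to 43.2% and gained of 3.45 to 3.54%. The share lost was 44.7% when 50% of the HSC peak had to be covered, 46.8% with 50% of both, 40.8% when a CMP peak within 500 bp counted, 32.0% in the wider 50% of HSC peaks, and, added after seeing the data, 41.7% without lost peaks near a CMP peak, 44.9% for isolated peaks and 33.0% for crowded ones. The share gained was 4.95%, 9.58%, 3.23% and 1.15% under the same 4 planned settings, and 3.24% without gained peaks near an HSC peak. Lost peaks per gained peak (settings added after seeing the data) went from 20.9 to 8.31 with 50% of both shared and 47.3 in the wider 50%. Requiring 50% cover moved median widths to 688 bp (lost), 806 bp (kept) and 739 bp (gained). The distal 1 Mb lay -10.9 points from all peaks in the wider 50%, against -6.36. ERY peaks covering 50% gave 2.90% (lost), 49.3% (kept HSC) and 50.9% (kept CMP). In the narrowest and widest width quintiles the ERY shares were 2.54% and 4.38% (lost), 37.8% and 66.6% (kept HSC), 31.8% and 78.5% (kept CMP), with 23.1% for the widest gained. A stricter overlap rule raises the shares lost and gained by construction. For the other shifts, subsets by width or neighbours included, the cause was not tested. No paired analysis was possible because each cell type has 1 library. Plans that need an mm9 genome or annotation, and motif shares, were not run. Without read depth, how far the sensitivity of the CMP list sets the number of lost peaks cannot be told apart from loss of methylation.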

Other observations

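Gained peaks were thinly spread. Of 2410 windows of 1 Mb with a peak in either list, 1155 held at least 1 gained peak, 120 held 3 or more, and 18 held more gained than lost peaks. The most, 7, were on chromosome 4 from 148 to 149 Mb (7 of 92 CMP peaks, 7.61%) and on chromosome 19 from 56 to 57 Mb (7 of 63, 11.1%). The share over all CMP peaks was 3.50%. Windows with 6 lay on chromosome 4 from 134 to 135 Mb (of 63 CMP peaks), chromosome 7 from 29 to 30 Mb (of 77) and chromosome 11 from 96 to 97 Mb (of 57). The last holds the Hoxb window with its 3 gained peaks. These are windows rich in peaks, with 86 to 150 HSC peaks each, and they lost 38.3 to 45.5% of them, close to the autosomal 43.1%. All were picked for having the most gained peaks, so part of their distance from 3.50% comes from having been selected.

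The lost peak farthest from any CMP peak was on chromosome 14 at 4535266 to 4535752, 3196482 bp away. The second, on chromosome 12 at 24327230 to 24328075, was 739522 bp from a CMP peak and had an ERY peak. The gained peak farthest from any HSC peak was on chromosome 2 at 176574733 to 176575099, 294934 bp away. On chromosome 4, at 28339294 to 28339726 and 28340054 to 28340406, the next 2 lay side by side, 249145 and 248465 bp from any HSC peak, and neither had an ERY peak. How well short reads can be placed at these positions was not examined.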
